A study of Drosophila melanogaster with 2 samples.

Results

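Chromatin regions occupied by the transcription factor E2f1 were described where they lay just upstream of coding start sites annotated in a single direction. Direction was read from the annotation, and transcription was not measured. A region was included when its summit, the base of the highest signal, fell 0 to 500 bp upstream of the nearest start site (TSS) of a protein-coding gene, and not also within 500 bp upstream of a coding TSS on the other strand. Of the 4439 regions reproducible between replicates, 1014 met the rule (22.8%). They are called single-direction regions here. The others were 626 regions between divergent promoter pairs, 290 with a summit 1 to 500 bp downstream of the nearest coding TSS, and 2509 elsewhere. The rule used the position of the summit against the annotation, and neither height nor recurrence. Sequence changes with distance from a TSS, so the rule bears on it, and shares of motifs are given beside those of all coding promoters.

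The material was whole Drosophila melanogaster embryos aged 0 to 24 hours, of the strain E2f1-GFP, whose flies carry a transgene for E2f1 fused to enhanced green fluorescent protein (E2f1-eGFP). Anti-GFP antibody was used to pull down their chromatin, in sonicated pieces of 200 to 800 bp, for sequencing (ChIP-seq). The 2 biological replicates formed 1 group and both carried the same fusion; the labels used here do not say whether unfused E2f1 was still present. The embryos mixed many tissues and stages, so a region cannot be placed in a cell type, and the files hold regions rather than reads, so the depth of each library is unknown.

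E2f1 is the activating E2F of the fly. It binds DNA as a pair with Dp and is best known for switching on genes of DNA synthesis at the start of S phase. Many fly promoters of broadly active genes carry other short elements near the TSS: the DNA replication-related element (DRE), bound by DREF, its core CGATA, which the boundary factor BEAF also binds, and motif 1, bound by M1BP. Promoters of genes with regulated expression more often carry a TATA box.

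The sequences at the highest summits showed the range of promoters. The first set is 4 of the 6 highest single-direction regions with an E2F match within 50 bp of the summit, on the strand of the gene, with the match in capitals; each window covers up to 50 bp on either side of the summit and stops before the TSS. A match meant, on either strand, the letters TTGGCGC, the variant TTGCCGC, the variant TTCGCGC or the variant TTCCCGC. The windows are from Caf1-180 (large subunit of chromatin assembly factor 1, chrX:8606305-8606400, minus strand), jar (myosin VI, chr3R:24271307-24271407, minus strand), CG15771 (chrX:5755478-5755573, plus strand) and Syx13 (a syntaxin, chr3L:13044362-13044433, plus strand), all in the dm6 build and read from the RefSeq assembly of that build.
Caf1-180: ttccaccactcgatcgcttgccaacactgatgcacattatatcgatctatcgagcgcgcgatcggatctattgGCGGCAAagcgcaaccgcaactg
jar: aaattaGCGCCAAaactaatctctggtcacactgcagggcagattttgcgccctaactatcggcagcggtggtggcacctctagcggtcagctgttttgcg
CG15771: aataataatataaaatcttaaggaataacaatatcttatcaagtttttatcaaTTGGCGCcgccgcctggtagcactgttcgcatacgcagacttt
Syx13: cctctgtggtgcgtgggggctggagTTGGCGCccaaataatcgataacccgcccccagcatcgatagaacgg

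The second set is 2 of the 5 highest single-direction regions with a DRE, TATCGATA, in capitals. They belong to PolA1, the polymerising subunit of DNA polymerase alpha (chr3R:21671759-21671859, minus strand), and eEF1gamma, a translation elongation factor (chr3R:29220064-29220164, plus strand).
PolA1: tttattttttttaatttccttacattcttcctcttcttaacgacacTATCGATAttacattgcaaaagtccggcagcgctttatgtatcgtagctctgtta
eEF1gamma: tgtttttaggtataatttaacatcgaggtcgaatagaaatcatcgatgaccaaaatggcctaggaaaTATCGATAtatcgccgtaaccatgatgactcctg

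The third set is 3 of the 4 highest single-direction regions, with the summit base in capitals. None of these windows held an E2F or DRE match. They belong to CG14100 (chr3L:19590568-19590668, minus strand), Ugalt, a UDP-galactose transporter (chrX:2703853-2703942, minus strand), and ph-p, a Polycomb group protein (chrX:2137299-2137399, minus strand).
CG14100: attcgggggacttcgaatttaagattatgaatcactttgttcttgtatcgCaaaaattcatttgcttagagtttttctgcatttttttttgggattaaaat
Ugalt: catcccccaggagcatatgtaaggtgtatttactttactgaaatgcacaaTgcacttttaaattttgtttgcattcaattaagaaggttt
ph-p: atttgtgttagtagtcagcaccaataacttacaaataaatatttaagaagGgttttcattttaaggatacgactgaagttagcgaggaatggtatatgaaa

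The single-direction regions had their summits a median of 171 bp upstream of the TSS (quartiles 98 and 284 bp), and 5 summits lay on the TSS base itself. Their median width was 344 bp. The nearest TSS was that of 951 genes, 6.82% of the 13945 coding genes. By chromosome arm the share of coding genes with such a region was 2.5% on the small chromosome 4 (2 of 80 genes), 6.11% on 3R, 6.25% on 2L, 6.73% on 2R, 7.16% on 3L and 8.47% on X. The genes lay on both strands about equally, 499 on the plus strand and 515 on the minus strand.

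Most of the summits lay outside genes, but many lay inside the gene they were nearest to. Of the 1014, 572 were in no annotated gene, 336 inside their own gene, 84 inside another coding gene and 22 inside a non-coding gene only. The nearest TSS was the 5′ end of its gene for 682 and an internal one for 332. Of the 951 genes, 521 (54.8%) had more than 1 TSS, against 3699 of all 13945 coding genes (26.5%). A gene with more start sites has more places where a summit can meet the rule. The nearest coding gene on the upstream side lay on the same strand for 578 regions and on the opposite strand for 436, at a median distance of 1714 bp. For 30 regions the summit also lay within 500 bp upstream of a non-coding TSS on the other strand, so these were single-direction for coding genes only.

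Regions at internal start sites were about as tall as those at 5′ ends and held fewer DRE and E2F matches. The height of a peak is a score that the authors deposited without a unit. The median was 141 at the 332 internal sites (quartiles 87.5 and 242) and 131 at the 682 5′ ends (quartiles 87.9 and 233). The summit lay further out at internal sites, at a median of 210 bp against 153.5 bp at 5′ ends. A DRE lay within 50 bp of the summit in 0.602% at internal sites against 3.37% at 5′ ends, and an E2F match in 2.71% against 5.13%. These differences were not tested.

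Height and recurrence were highest in the middle of the 500 bp. The median height was 100.1 at 0 to 50 bp from the TSS, 131 at 51 to 100 bp, 158 at 101 to 150 bp and 184 at 151 to 200 bp. Further out it was 145 at 201 to 300 bp, 123 at 301 to 400 bp and 114 at 401 to 500 bp. The quartiles overlapped between all of these bins, which were chosen after the values were seen, and no test was made. The share of regions found in both replicates' own sets followed the same shape. It was 49.2% at 0 to 50 bp (exact 95% interval 40.02 to 58.4), 73.5% at 151 to 200 bp (65.9 to 80.3) and 51.2% at 401 to 500 bp (40.04 to 62.3).

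**Figure D1:**
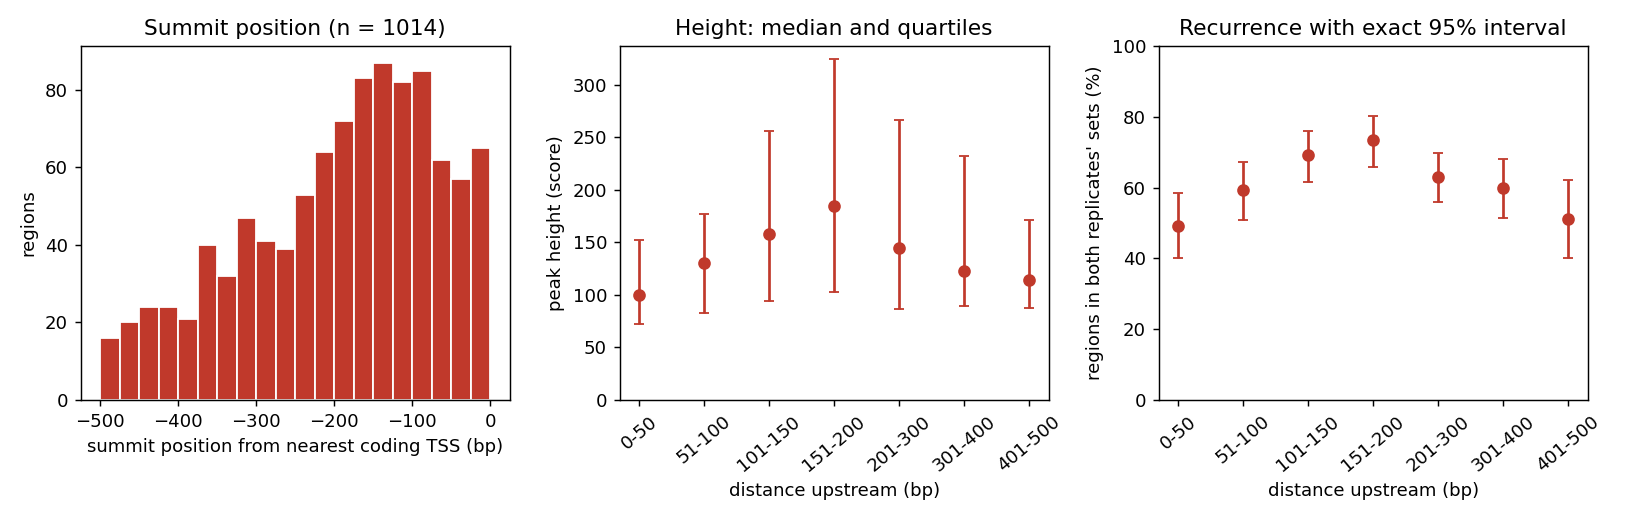
Positions, heights and recurrence of the 1014 single-direction regions: left, number of regions by summit position in bp from the nearest coding TSS; middle, median peak height (score) with quartiles in bins of distance upstream; right, percent of regions found in both replicates' own sets with exact 95% intervals. Median height and recurrence are highest at 151 to 200 bp, at 184 and 73.5%.

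The single-direction regions were taller than regions downstream of start sites or away from promoters, and about as tall as those between divergent pairs. Their median height was 133 (quartiles 87.8 and 235, highest 2140), against 142 for divergent pairs, 92.9 for regions just downstream and 106 for all other regions. Above the median of the whole set, which by construction held 50% of regions, lay 600 of 1014 single-direction regions (59.2%, exact 95% interval 56.1 to 62.2). The share was higher than the 37.9% of regions just downstream (odds ratio 2.37, adjusted p = 2.52e-10, two-sided exact test of Fisher with Benjamini-Hochberg adjustment over 3 classes). It was also higher than the 45.0% of all other regions (odds ratio 1.77, exact adjusted p = 6.24e-14). Against the 60.9% of divergent pairs (interval 56.9 to 64.7) there was no difference past the threshold (odds ratio 0.932, exact adjusted p = 0.501). Regions are not replicates, so these p-values and intervals cover counting error only. With a global IDR (irreproducible discovery rate) of 0.001, the difference from regions just downstream missed the threshold (odds ratio 1.49, exact adjusted p = 0.0560).

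Recurrence followed height. In both replicates' own thresholded sets lay 629 single-direction regions (62.0%, exact 95% interval 59.0 to 65.03), where 55.3% of the whole set did. A further 127 were in the set of replicate 1 only, 98 in that of replicate 2 only and 160 in neither. The share was higher than the 42.8% of regions just downstream (odds ratio 2.19, exact adjusted p = 8.81e-09) and the 51.2% of all other regions (odds ratio 1.56, exact adjusted p = 8.81e-09), and against the 66.6% of divergent pairs it did not pass (odds ratio 0.819, exact adjusted p = 0.0643). At a global IDR of 0.001, where 89.6% of the single-direction regions were in both sets, neither difference passed (odds ratios 1.14 and 1.34).

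Within quintiles of height over the whole set, recurrence differed more between quintiles than between classes. Among single-direction regions the share in both sets was 7.10% in the lowest quintile, 14.7%, 62.1% and 92.1% in the following ones and 99.7% in the highest. Regions just downstream had 6.12% in the lowest quintile, 53.2% in the middle quintile and 100% in the highest. All other regions had 5.73%, 61.5% and 100% in the same quintiles. Divergent pairs had 16.9% in the lowest quintile (exact 95% interval 9.31 to 27.1), which lay wholly above the interval of all other regions, and 58.1% and 99.5% in the middle and highest ones. The interval of each other class overlapped that of the single-direction regions, which was 3.60 to 12.3 in the lowest quintile, in all 5 quintiles. These differences were not tested. The share of the class in the highest quintile was 28.3% for single-direction regions, 29.4% for divergent pairs, 13.8% for regions just downstream and 15.03% for all other regions.

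**Figure D2:**
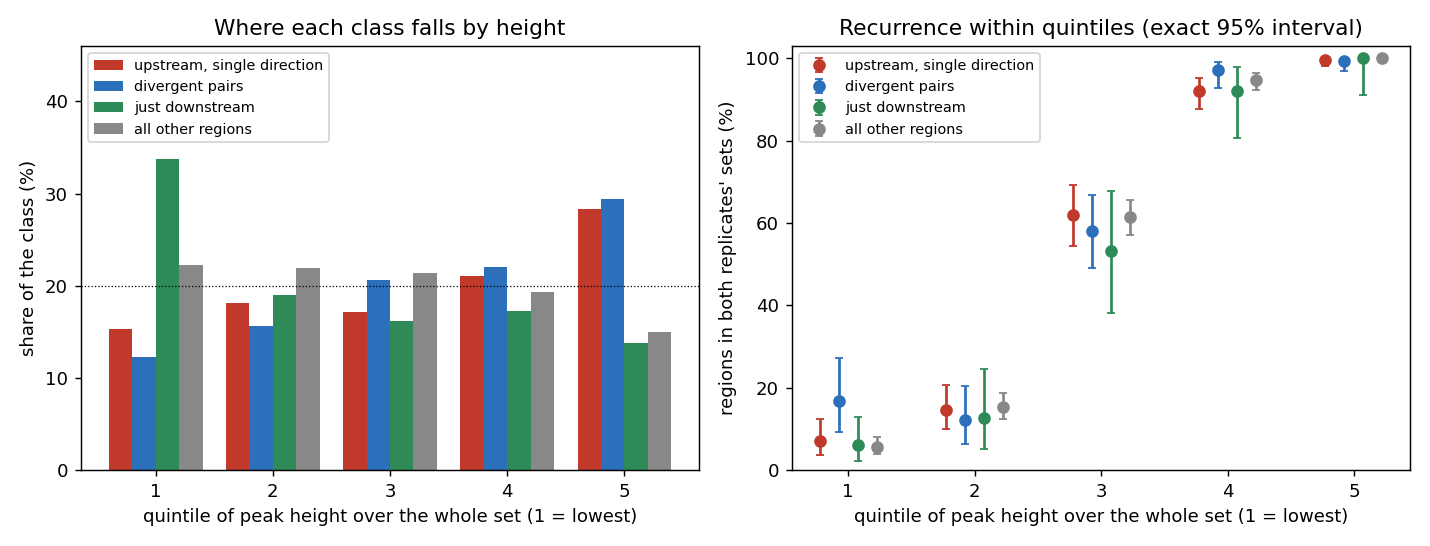
Height and recurrence by class of region: left, share of each class (%) in each quintile of peak height over the whole set, with a dotted line at 20%, the share of the whole set in each quintile; right, percent of regions in both replicates' own sets within each quintile, with exact 95% intervals. Of the single-direction regions (red), 28.3% are in the highest quintile, and the intervals for recurrence overlap those of each other class in every quintile; in the lowest, divergent pairs (blue) stand at 16.9% and all other regions (grey) at 5.73%.

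Heights in the separate replicates were correlated in these regions, which had been kept for reproducibility between the same replicates. Each region was matched by overlap to the replicate's own ranked list, which gave a height for 1012 regions in replicate 1 and 1002 in replicate 2. Over the 1001 with both, the Spearman coefficient was 0.819 and Pearson's r of log2 heights 0.885. These describe regions of the same libraries and carry no p, and the selection for reproducibility bears on both. Regions that overlap each other can share a matched height, as at Mhcl and Orai. Replicate 1 was higher for 788 of 1001 regions (78.7%), with a median log2 ratio of replicate 1 over replicate 2 of 0.32. The lowest matched heights also differed, at 31.6 in replicate 1 and 23.5 in replicate 2, and no rescaling between the libraries is stated. So a ratio is read here only against that of other regions. Of the 110 regions beyond 2-fold, 108 were higher in replicate 1.

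Motif matches set the summit apart from its own flank in a few elements. In 19 motifs, the 101 bp centred on the summit were compared with the 101 bp centred 500 bp further upstream of the same gene. Beside the E2F spellings and the DRE, the motifs were the BEAF core CGATA, motif 1 GGTCACAC, GAGAGAG of the GAGA factor, the repeat CACACACA, the E-box CACGTG, the other E-box CAGCTG, the letters AGATAA of GATA factors, CAGGTAG of Zelda, the CHR as TTTGAA or the variant TTCGAA, the letters TAACGG of Myb, AAAAAAAA for poly(dA), the letters TATAAA of the TATA box, CCGGAA of Ets factors, TGACGTCA of CREB/ATF, GGGCGG of Sp/KLF, GCCAT of Pho and TCAGT for the initiator, all searched on both strands. The DRE contains the BEAF core. Of the 19, 4 were more frequent at the summit and 1 was less frequent (exact McNemar test, two-sided, Benjamini-Hochberg over 19).

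The DRE had the largest ratio of the 19, with 2.47% of summit windows against 0.394% of flanks (25 against 4 regions, exact adjusted p = 9.85e-04). Motif 1 was found in 1.58% against 0.394% (16 against 4 regions, exact adjusted p = 0.0449). The BEAF core was in 19.0% of summit windows and 13.2% of flanks (exact adjusted p = 0.00313), and in windows without a DRE in 168 against 130 regions. The TATA box letters were in 22.4% against 14.1% (exact adjusted p = 4.69e-05). The Sp/KLF letters, which are rich in G and C, were in 1.38% of summit windows against 3.55% of flanks (exact adjusted p = 0.0124). Windows of 101 bp were also placed 171 bp upstream of the 5′ ends of all 13945 coding genes. These held the DRE in 1.25%, motif 1 in 0.602%, the BEAF core in 14.0%, the TATA box in 20.1% and Sp/KLF in 1.93%. The summits ran from 0 to 500 bp, so these windows were not matched to them in distance. At 25 bp upstream the same promoters held the DRE in 6.86%, motif 1 in 5.32% and the BEAF core in 28.6%. Summit windows at 0 to 50 bp held them in 11.5%, 6.56% and 46.7%, and no test was made.

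Base composition also differed between summit and flank, and its part in these differences was not tested. The summit windows averaged 34.4% GC (SD 10.8, n = 1014), the flanks 500 bp upstream 40.3% (SD 10.6) and windows 500 bp downstream, inside the transcribed side, 46.2% (SD 9.68). With the control placed 250 bp upstream the TATA box missed the threshold (ratio 1.21, exact adjusted p = 0.112). The BEAF core missed it in replicate 2 alone (ratio 1.20, exact adjusted p = 0.260) and at a global IDR of 0.001 (ratio 1.30, exact adjusted p = 0.126). Motif 1 and Sp/KLF missed it in 7 of the 12 alternatives each, each replicate alone among them. In replicate 2 alone the ratio was 2 for motif 1 (exact adjusted p = 0.433) and 0.444 for Sp/KLF (exact adjusted p = 0.0855), and in replicate 1 alone 2.57 (exact adjusted p = 0.103) and 0.469 (exact adjusted p = 0.0612). The DRE missed it in 2, with ratios between summit and flank of 4 in replicate 2 alone (exact adjusted p = 0.0762) and 3.75 within 25 bp of the summit (exact adjusted p = 0.0730).

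E2F matches were not more frequent at the summit than in the flank. They lay in 44 summit windows (4.34%, exact 95% interval 3.17 to 5.78) and 47 flanks (4.64%), with an exact adjusted p of 0.924. Of all coding promoters, 3.56% held one at 171 bp upstream, the median distance of the summits. Over the bins of distance within 500 bp, that share ran from 3.54% to 5.93%. Of all 4439 regions 4.17% held a match. Over the whole width of the region, 145 of 1014 (14.3%) held a match. The direction of the summit and flank ratio depended on which regions were taken: it was 1.71 with a limit of 200 bp in the rule (exact adjusted p = 0.0607) and 1.56 in the set of replicate 1 alone (exact adjusted p = 0.0720).

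**Figure D3:**
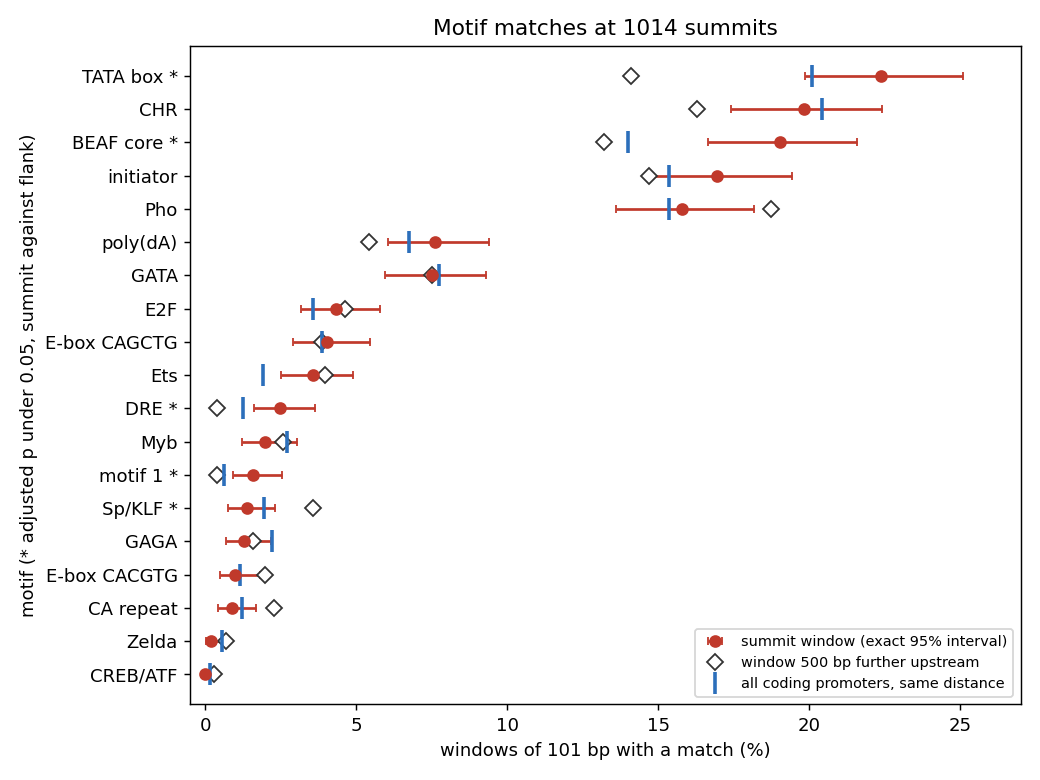
Share of the 1014 single-direction regions with each of 19 motifs. Filled points are the 101 bp around the summit, with exact 95% intervals, and open diamonds the 101 bp centred 500 bp further upstream. Bars are 101 bp windows at all coding promoters, all placed 171 bp upstream of the 5′ end of the gene. Asterisks mark the 5 motifs past the exact McNemar test; E2F matches stood at 4.34% in summit windows and 4.64% in flanks.

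Regions just downstream of start sites held E2F matches more often. A match lay at 4.34% of single-direction summits against 13.8% of summits just downstream (odds ratio 0.284, exact adjusted p = 1.85e-06, Fisher's test, two-sided, Benjamini-Hochberg over 19 motifs). The direction and the call held in all 10 alternatives run for this comparison, with odds ratios from 0.263 to 0.471. The TATA box went the other way, with 22.4% against 11.0% (odds ratio 2.33, exact adjusted p = 8.41e-05). Its letters were in 23.2% of the whole set, 28.1% of divergent pairs and 23.6% of all other regions. The share just downstream was thus the low one, and that of single-direction regions was close to the whole set. The windows differed in base composition too, with 34.4% GC in single-direction regions and 43.1% just downstream. The other calls were Sp/KLF at 1.38% against 5.86%, the E-box CAGCTG at 4.04% against 8.97% and CHR at 19.8% against 13.4%. At a global IDR of 0.001 neither the TATA box (odds ratio 1.74, exact adjusted p = 0.154) nor Sp/KLF (odds ratio 0.44, exact adjusted p = 0.460) passed. Sp/KLF also missed the threshold with the regions of replicate 2 (exact adjusted p = 0.555, odds ratio 0.591) and at q-like values at or below 0.05 (odds ratio 0.323, exact adjusted p = 0.0588).

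Against divergent pairs the DRE and its core were rarer. The DRE was in 2.47% of single-direction summit windows and 5.75% of divergent ones (odds ratio 0.414, exact adjusted p = 0.0207), and the BEAF core in 19.0% and 25.2% (odds ratio 0.696, exact adjusted p = 0.0337). Each call was lost in 7 of the 10 alternatives. These included each replicate alone, with odds ratios of 0.659 in replicate 2 and 0.702 in replicate 1 for the DRE and 0.793 and 0.768 for the BEAF core, and with a limit of 200 bp the BEAF core was more frequent in single-direction regions (odds ratio 1.43). E2F matches stood at 4.34% in single-direction and 4.63% in divergent regions (odds ratio 0.934, exact adjusted p = 0.901).

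No motif had a preferred strand relative to the gene past the threshold. Of 15 motifs that are not their own reverse complement, none passed an exact binomial test after adjustment and 1 had an unadjusted p under 0.05. That was Pho, whose letters lay on the gene strand in 94 of 152 regions (61.8%, exact 95% interval 53.6 to 69.6, exact adjusted p = 0.0656). E2F matches lay on the gene strand only in 24 regions, on the other strand only in 17 and on both in 3. For the TATA box letters these numbers were 93, 94 and 40.

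Sequence at the summit changed with the distance from the TSS. Mean GC of the summit window was 46.3% at 0 to 50 bp, 39.0% at 51 to 100 bp, 32.7% at 101 to 150 bp and 30.9% at 151 to 200 bp. Windows of all coding promoters at the middle of these bins had 42.6%, 39.3%, 36.4% and 36.1%. So summits within 50 bp of the TSS lay on sequence richer in G and C than the average promoter there, and those beyond 100 bp on sequence poorer in it. Among regions, height was lower at higher GC (Spearman coefficient -0.30, n = 1014, over regions that share 2 libraries).

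E2F matches and DREs were found mostly in summits next to the TSS. An E2F match lay in 15 of 122 windows at 0 to 50 bp (12.3%, exact 95% interval 7.05 to 19.5), where 5.93% of all promoters held one. At 51 to 100 bp it was 12 of 147 (8.16%, interval 4.29 to 13.8), against 5.61% of all promoters. At 201 to 300 bp it was 1.02%, where all promoters had 4.27%. The DRE was in 11.5% of windows at 0 to 50 bp (14 regions) and 5.44% at 51 to 100 bp (8 regions), against 6.86% and 4.57% of all promoters. TATA box letters ran the other way, from 6.56% at 0 to 50 bp to 29.03% at 151 to 200 bp. Of all promoters, 18.22% and 19.96% held these letters at the middle of the same bins. So summits next to the TSS held them less often than promoters there, and those at 151 to 200 bp more often. The bins were chosen after the values were seen, and no test was made.

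**Figure D4:**
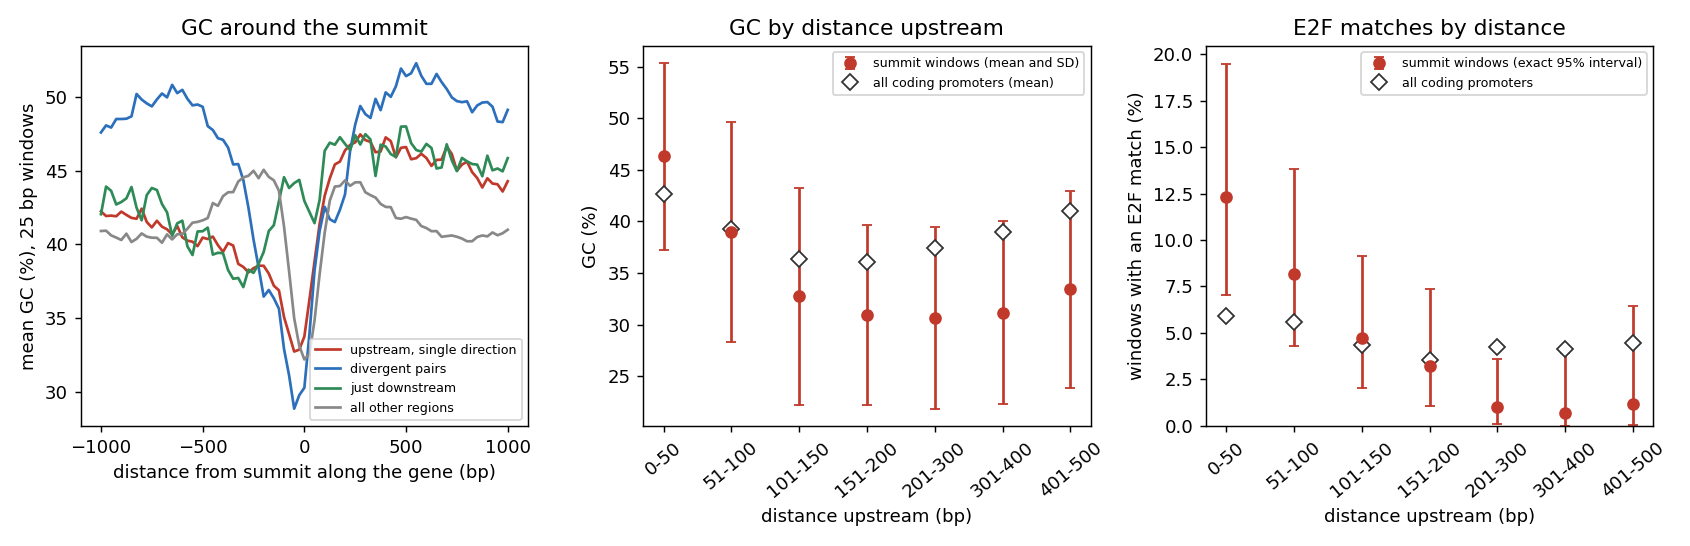
Sequence at the summit: left, mean GC (%) in 25 bp windows by distance from the summit along the gene, for each class; middle, mean and SD of GC in the 101 bp summit window by distance upstream, beside all coding promoters; right, percent of windows with an E2F match, with exact 95% intervals, beside all coding promoters. Close to the TSS, at 0 to 50 bp, summit windows have 46.3% GC and 12.3% hold an E2F match.

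The 44 regions with an E2F match held 48 matches, of which 24 were TTGGCGC, 9 each TTCGCGC and TTGCCGC, and 6 TTCCCGC. Of the 48, 23 lay within 25 bp of the summit. They lay a median of 84 bp upstream of the TSS, and 7 lay downstream of it. The 44 regions had a median height of 159 (quartiles 92.2 and 267), against 132 (87.5 and 233) for the 970 without, and 61.4% were in both sets against 62.1% without.

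The 8 highest of these regions were all higher in replicate 1. Caf1-180 (summit 46 bp upstream, height 797) had heights of 507 in replicate 1 and 293 in replicate 2. Rtf1, a subunit of the Paf1 complex of transcription elongation, had 409.9 in replicate 1 and 159 in replicate 2, and its window also held a DRE. Orc1, a subunit of the complex that marks replication origins, had 309 in replicate 1 and 112 in replicate 2, with its summit 6 bp upstream of the TSS. Replicate 1 was thus well above replicate 2 in all 3. The gap was smaller in CG15771, with 196 in replicate 1 and 190.1 in replicate 2, and in fok, with 181 and 140.3. The remaining regions were those of jar (270 in replicate 1 and 135 in replicate 2), Syx13 (238 and 119) and CG5359 (246 and 91.0).

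The replicate ratio was larger in regions with an E2F match. Of the 44 regions with a match, 42 were higher in replicate 1, with a median log2 ratio of replicate 1 over replicate 2 of 0.84 (quartiles 0.46 and 1.24). Of the 957 without, 746 were higher in replicate 1, with a median of 0.30 (quartiles 0.04 and 0.62). The ratio rose with GC content as well: its median was 0.28 in the lowest quintile of summit windows by GC and 0.53 in the highest. In the highest GC quintile alone it was 0.85 in 31 regions with a match and 0.46 in 171 without. Within 100 bp of the TSS all 27 regions with a match were higher in replicate 1, with a median of 0.91, against 0.45 in 242 without. In divergent pairs the median was 0.90 in 29 regions with a match and 0.16 in 590 without, just downstream of start sites 0.81 in 40 with and 0.44 in 243 without, and in all other regions 0.47 in 71 with and 0.31 in 2406 without. The pattern was noticed in these data and rests on 2 libraries, so no test was made of it.

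**Figure D5:**
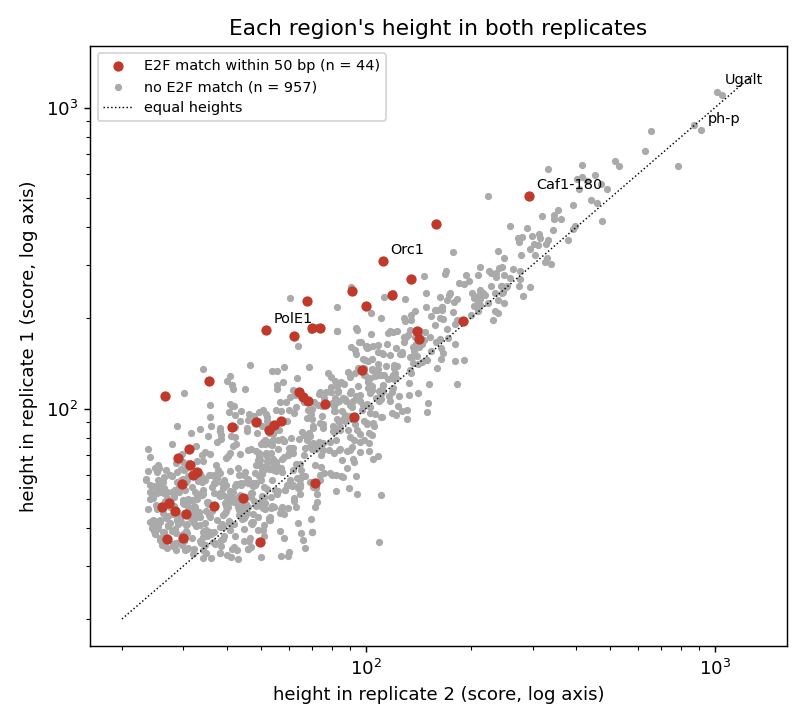
Peak height in replicate 1 (vertical axis) against replicate 2 (horizontal axis), both scores on log axes, for the 1001 single-direction regions matched in both; red points hold an E2F match within 50 bp of the summit, grey points do not, and the dotted line marks equal heights. Of the 44 red points 42 lie above the line.

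Regions with a DRE also had a larger ratio, with a median log2 ratio of 0.78 in 25 regions with it and 0.31 in 976 without. Over all single-direction regions the ratio was larger near the TSS too. Its median was 0.56 at 0 to 50 bp, 0.43 at 51 to 100 bp, 0.30 at 101 to 150 bp and 0.24 at 401 to 500 bp. Regions with a DRE were not compared with others at a like distance or GC, so their part in the difference was not tested. The 5 highest were PolA1, Rtf1, Alg3, an endoplasmic reticulum mannosyltransferase, CG1827 and eEF1gamma. PolA1 (height 736, summit 59 bp upstream) had 508 in replicate 1 and 223 in replicate 2. Alg3 had 238 in replicate 1 and 211 in replicate 2, CG1827 217 and 166, and eEF1gamma 243 and 119. The 25 DRE regions lay a median of 46 bp upstream of the TSS and 14 of them were in both sets. In all, 77 regions (7.59%) held an E2F match, a DRE or motif 1 at the summit, and 3 held both an E2F match and a DRE.

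Gene groups were read against the 6.82% of all coding genes that had a single-direction region. DNA replication and nucleotide supply had 8 of 43 genes (18.6%, exact 95% interval 8.39 to 33.4), and their summits lay a median of 20 bp upstream of the TSS. The highest were PolA1 and Orc1. The other 6 were named after their values were seen. They were the helicase subunits Mcm2 and Mcm7, PolE1, the catalytic subunit of DNA polymerase epsilon, and PCNA, the sliding clamp. Also among them were the helicase loader Cdc6 and geminin, an inhibitor of helicase loading. All 8 were higher in replicate 1, with a median log2 ratio of 1.32. Of all 122 single-direction regions at 0 to 50 bp, 111 were higher in replicate 1, with a median of 0.56. PCNA had 136 in replicate 1 and 34.1 in replicate 2, PolE1 182 and 51.8, and Cdc6 112 and 30.02. An E2F match lay at the summit in 3 of the 8 and a DRE in 2. With a limit of 200 bp, 15 of the 43 had a region, where 6.01% of all coding genes did.

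DNA repair had 6 of 30 genes (20%), led by spel1, a mismatch repair protein (height 269), and Claspin, a checkpoint mediator (139), but 2 of the 6 were in both sets and none held an E2F match. Its count was 3 (10%) in replicate 1 alone, where 6.14% of all coding genes had a region. At a global IDR of 0.001 it was also 3 (10%), against 4.60% of all coding genes. In replicate 2 alone it was 5 (16.7%, against 5.23%), and in the larger set 8 (26.7%, against 7.62%). Chromatin assembly and histone supply had 3 of 15: Caf1-180, dre4 of the FACT complex (254) and His3.3B, a replacement histone (77.9). Of 11 E2F, Rb and dREAM components, 1 had a single-direction region, that of Dp (height 443, 196 bp upstream), the partner of E2f1. Cyclins and Cdks had 2 of 27 (7.41%), Cdk2 (339, at 14 bp) and fzr, an activator of the anaphase-promoting complex (87.3). In replicate 1 alone they had 4 (14.8%), against 6.14% of all coding genes. They had 5 (18.5%, against 7.62%) in the larger set and 1 (3.70%, against 4.60%) at a global IDR of 0.001. Mitosis had 3 of 38 (7.89%), among them the kinase polo (113). Its count was 5 (13.2%, against 7.62%) in the larger set and 1 (2.63%, against 5.21%) with the 5′ end of the gene as TSS.

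Glycolysis had the largest share of the 19 lists, 6 of 12 genes (50%, exact 95% interval 21.1 to 78.9). The highest were Gapdh2, glyceraldehyde-3-phosphate dehydrogenase, and Eno, enolase. Gapdh2 had heights of 437 in replicate 1 and 319.7 in replicate 2, and Eno 239 and 173. The other 4, named after their values were seen, were Ldh, Hex-A, Pgk and PyK. All 6 were in both sets, none held an E2F match or a DRE, and their median distance was 226.5 bp, further from the TSS than the replication genes. Their GC ran from 17.8% to 25.7%, and their median log2 replicate ratio was 0.45. The number of genes dropped to 2 (16.7%) with a limit of 200 bp, where 6.01% of all coding genes had a region. The summits of Eno, Ldh, Pgk and PyK, at 207 to 340 bp, lay beyond that limit. With the 5′ end of the gene as TSS the number dropped to 3 (25%), against 5.21% of all coding genes.

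Cytosolic ribosomal proteins had 22 of 92 genes (23.9%, exact 95% interval 15.6 to 33.9), with a median distance of 30 bp. The highest were RpL23A (height 282) and RpS28b (268). Of the 22, 16 were in both sets, 5 held a DRE and 1 an E2F match. Replicate 1 was higher in 21 of them, with a median log2 ratio of 0.67. Of all 122 single-direction regions at 0 to 50 bp, replicate 1 was higher in 111 (91.0%), with a median of 0.56. Translation initiation and elongation factors had 7 of 51, led by eIF6, a factor of the large ribosomal subunit, and eEF1gamma. Mitochondrial ribosomal proteins had 2 of 73, mRpL41 (1753) and mRpL4 (151), oxidative phosphorylation 1 of 87, ND-B17 (83.5), and proteasome subunits and aminoacyl-tRNA synthetases none of 48 and none of 32. The shares of these 4 lists lay below the 6.82% of all genes. The exact 95% upper limit was also below it for oxidative phosphorylation (6.24%). For mitochondrial ribosomal proteins (9.55%), the proteasome (7.40%) and the synthetases (10.9%) the upper limit lay above it. With a limit of 200 bp, where 6.01% of all coding genes had a region, mitochondrial ribosomal proteins had 6 (8.22%) and synthetases 2 (6.25%), both above that share, oxidative phosphorylation 3 (3.45%) and the proteasome 1 (2.08%).

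Developmental lists had counts of 1 to 3 genes, with shares on both sides of the 6.82% of all genes. Of 32 embryonic patterning factors 3 had one (9.38%), led by tin, a homeobox regulator of heart cells (446), and bcd, the anterior determinant (146). Of 20 neuronal genes (5%) elav, an RNA-binding protein of neurons, had one (height 687), and of 18 muscle genes (11.1%) sls, a titin-like protein of the sarcomere (266), and Act87E, an actin (84.6). Polycomb group genes had 2 of 17 (11.8%), ph-p and esc (145). With a limit of 200 bp the counts were 1 patterning (3.13%), 0 neuronal, 0 muscle and 2 Polycomb group genes (11.8%), against 6.01% of all coding genes. RNA polymerase II and TFIID had 1 of 28 (3.57%), Taf4 (172). In replicate 1 alone they had 2 (7.14%), against 6.14% of all coding genes. None of 179 chemoreceptor genes had any (exact 95% upper limit 2.04%).

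The 12 highest single-direction regions ran in height from 2140 to 1031, and all 12 were in both replicates' sets. None held an E2F match or a DRE within 50 bp of the summit. CG14100 had 1105 in replicate 1 and 1047 in replicate 2, Ugalt 1129 and 1016, and mRpL41 878 and 873. In these 3 the replicates stood close together, while they were further apart in RluA-1, with 645 in replicate 1 and 416 in replicate 2, and in CG18549, with 838 and 654. In ph-p, with 841 in replicate 1 and 909.6 in replicate 2, and in eIF6, with 639 and 782, replicate 2 was the higher. The others were CG18549 (height 1488), px (1350), Fkbp14, an endoplasmic reticulum prolyl isomerase (1166), gish, casein kinase 1 gamma (1163), RluA-1 (1062), Tina-1 (1037) and Sox14, a SoxC transcription factor (1031). Of the 12, 4 had the summit inside their own gene and 6 lay on arm 2R.

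The 5 lowest were at Fmr1, the fly fragile X protein, Mgat1, sug, peb and CG31075, with heights of 2.15 to 4.17. Their heights in the replicates' own lists were far higher, for example 51.9 in replicate 1 and 33.4 in replicate 2 at Fmr1, and the summits there lay 104 and 294 bp away. None of the 5 was in both sets. Of the 1014, 26 had a joint height below that of a replicate's own list, and all 26 had a q-like value above 0.05, as did 137 of the 1014 in all. Without these 137 the share in both sets was 70.6%.

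Some genes had several single-direction regions: 47 genes had 2, 5 had 3 and 2 had 4. The genes with 4 were Rtnl1, a reticulon of the endoplasmic reticulum, and Svil, a supervillin. The regions of Rtnl1 had heights of 897, 406, 139 and 122, all in both sets, with the TATA box letters in the windows of the 2 highest. Those of Svil had 338, 122, 106 and 85.0. The genes with 3 were Mhcl, a myosin heavy chain-like protein, Moe, the fly moesin, Orai, a calcium channel, Ptpmeg2, a tyrosine phosphatase, and dnc, a cAMP phosphodiesterase. Ptpmeg2 was even in height, with 532, 463 and 312, while Orai ran from 106 to 20.9. Regions of 1 gene share a locus, and 22 neighbouring pairs overlapped each other, 1 of them at Mhcl and 1 at Orai. In both of these genes 2 of the 3 regions were nearest to the same TSS.

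At the edge of the rule values were alike on both sides. Just inside 500 bp lay capu (500 bp, height 78.0), CG17896 (495 bp, 633) and PHDP (495 bp, 194). Just outside lay CG5535 (502 bp, height 119), CG42671 (502 bp, 442) and CG8861 (504 bp, 141).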

How the data were processed

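Both biological replicates of the 1 group, whole embryos with E2f1-eGFP, were used; coordinates follow dm6, per the labels. Which aligner and peak caller were run is not given in the sources used here. For each replicate and for both together, the authors deposited ranked lists and sets thresholded on the IDR (irreproducible discovery rate); the conservative joint set is used. The deposited peak height is a score, and the deposited −log10 columns hold a q-like value and the global IDR. No read counts were used, so depth is unknown.

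Start sites came from Ensembl BDGP6.54, release 115 (19607 coding TSSs). Sequences were read from RefSeq's assembly of that build, and no printed window is from arm 2R. A region was in a replicate's set when it overlapped a region of it by 1 bp or more. Tests were exact and two-sided with Benjamini-Hochberg adjustment, at a threshold of 0.05, and 95% intervals are Clopper-Pearson. The members, the 19 gene lists (852 genes, 5 matched through older symbols, 3 symbols unmatched) and the motifs were chosen with earlier results of these data known. The named genes were the 12 highest regions, the 8 highest with an E2F match, the 5 highest with a DRE, the 5 lowest, genes with 3 or more regions, the 2 highest of each list and the 3 regions on either side of the 500 bp limit; 1 of them, in the mitosis list, is not reported here. Classes and tests were checked on simulated data. Alternatives were the larger joint set, each replicate's set alone, a 200 bp limit, a global IDR of 0.001, the 5′ end of each gene as TSS, other overlap rules, motif windows of 25 and 100 bp each side, controls 250 bp upstream and 500 bp downstream, and 1 region per gene. Regions with a q-like value at or below 0.05 were an alternative chosen after seeing the data. Statistics were computed with scipy 1.17.1, tables with pandas 2.3.3 and numpy 2.4.6, and figures with matplotlib 3.10.9, under Python 3.11.15.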

Additional observations from a re-analysis of the deposited data

How the results depend on the processing

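Over 14 alternatives, which gave 360 values for 43 results, most kept their direction and their side of the threshold, with the exceptions given here; the causes of the differences were not tested. At a global IDR of 0.001 the number of regions was 671. The odds ratios in height and recurrence against regions just downstream were then 1.49 and 1.14, and in recurrence against all other regions 1.34, with none past the threshold, and the motif counts were 3 of 19 against the flank, 2 against regions just downstream and 0 against divergent pairs. Against divergent pairs the height odds ratio passed the threshold in the larger set (0.737) and with the 200 bp limit (0.667), as did the recurrence odds ratio (0.764 and 0.606), and with the 5′ end as TSS the height ratio was 1.03, on the other side of 1. The 200 bp limit applies to both strands, so it moves some divergent summits into the single-direction class; it left 3 motifs past the test against the flank, 3 against regions just downstream and 0 against divergent pairs, and turned the BEAF core odds ratio against them to 1.43.

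Motif counts against the flank were 3 with a 25 bp window, 9 with a 100 bp window and 8 with the control 500 bp downstream. Against divergent pairs they were 0 with the 25 bp window, 7 with the 100 bp window, 4 in the larger set, 0 with the 5′ end as TSS and 0 with q-like values at or below 0.05, where 3 passed against regions just downstream. Leaving out a replicate gave 1 to 3 against the flank, 2 to 4 against regions just downstream and 0 to 1 against divergent pairs. For strand preference 1 motif passed in the larger set and 1 with the 100 bp window. The ratio of E2F matches at the summit to the flank was 0.936, and 1 with 1 region per gene, 1.38 with the 5′ end as TSS, 1.125 in the larger set, 1.71 with the 200 bp limit, 1.11 with the 25 bp window and 0.769 to 1.56 with a replicate left out, none past the threshold. The number of list genes with a region was 70 and ran from 53 to 88.

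No paired analysis was possible because there was 1 group. The files give no reads, so the depth that limits weak regions is unknown, and 2 libraries cannot show how far a region varies between embryos.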
